A study of Mus musculus with 8 samples.

Results

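Skeletal muscle contractile and energy genes were followed here on arrays whose RNA was labelled as cervical spinal cord. The 41 genes were listed by name for the parts they play in striated muscle. A probe set counted for a gene when the platform annotation gave it that symbol alone, and the probe set with the highest mean over the 8 arrays was used. All 41 were on the array, among 19938 genes with such a probe set, and 39 of the 41 were among the 16026 genes bright enough to be tested. The 2 that were too dim, Xirp2 and Smpx, are described with their values. By fibre type, 11 of the listed genes code for proteins typical of fast fibres and 7 for proteins typical of slow fibres, and the other 23 are used in both or were not assigned.

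Male C57BL/6 mice, 6 weeks old per the labels, formed 4 groups with 2 arrays each. Control mice received saline into the abdomen daily for 4 weeks, and MPTP mice received MPTP hydrochloride at 20 mg/kg of free base every 24 h over the same time. MPTP is a toxin for the dopamine neurons of the midbrain, and giving it to mice is a common model of parkinsonism. The acupoint and the non-acupoint group both received MPTP in the same way and were needled by hand 2 h after the first injection and then every 48 h, in 14 sessions. In the acupoint group the needles went into GB34 to 3 mm and LR3 to 1 mm, points on the hind limb, and in the non-acupoint group into both hips to 3 mm. No saline-treated mice were needled among these arrays. The control and MPTP groups each had 9 mice, and the labels number 2 mice in each group, but do not say whether other mice were pooled with them, so p-values measure only the spread between these samples.

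A muscle fibre shortens when myosin heads on the thick filaments pull on actin in the thin filaments, inside repeating units called sarcomeres that are bordered by Z-discs. Calcium released from the sarcoplasmic reticulum binds troponin and frees the actin for myosin, and calcium pumps then return it to the store. Fast and slow fibres are built from different genes for myosin, troponin, myosin-binding protein and the calcium pump, and differ in how they make ATP. The slow forms of several of these genes are also those of the heart ventricle. Neurons and glia of the spinal cord do not build sarcomeres.

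Most of these genes were high on both control arrays and on the first of the 2 acupoint arrays and low on the other 5. Of 39 tested, 21 were lower in MPTP than in control mice and 1 was higher, by limma at a p under 0.05 after adjustment over all 16026 genes, of which 3.1% were lower and 13.7% higher. Of 11 fast isoforms 9 were lower, and of 7 slow isoforms 0 passed. Several slow isoforms were dim on all arrays, so no change cannot be told from a signal too low to show it. Between needled and MPTP mice no listed gene passed. The 2 arrays of a group differed widely in the control and acupoint groups, and the values are therefore given array by array.

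To show what the fast and slow genes look like upstream, the 250 bases before the start of the 3 fast myosin heavy chain genes, of the muscle phosphoglycerate mutase gene Pgam2 and of the slow myosin heavy chain gene Myh7 are printed from RefSeq, assembly GRCm38.p6, in the direction of transcription. Capitals mark the E-box CAGCTG, a letter pattern that muscle regulatory factors of the MyoD family are known to bind, and matches to the binding pattern of the MEF2 factors, both searched on either strand.
Myh2, chr11:67170777-67171026, plus strand: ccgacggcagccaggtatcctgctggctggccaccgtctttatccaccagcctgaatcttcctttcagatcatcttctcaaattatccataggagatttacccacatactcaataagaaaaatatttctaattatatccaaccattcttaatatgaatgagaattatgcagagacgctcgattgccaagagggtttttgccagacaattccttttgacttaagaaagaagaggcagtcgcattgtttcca
Myh1, chr11:67199852-67200101, plus strand: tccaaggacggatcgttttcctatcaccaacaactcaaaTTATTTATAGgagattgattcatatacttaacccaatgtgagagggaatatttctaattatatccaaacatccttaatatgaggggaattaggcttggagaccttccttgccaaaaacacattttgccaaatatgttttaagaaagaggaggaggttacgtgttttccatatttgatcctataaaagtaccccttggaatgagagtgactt
Myh4, chr11:67237562-67237811, plus strand: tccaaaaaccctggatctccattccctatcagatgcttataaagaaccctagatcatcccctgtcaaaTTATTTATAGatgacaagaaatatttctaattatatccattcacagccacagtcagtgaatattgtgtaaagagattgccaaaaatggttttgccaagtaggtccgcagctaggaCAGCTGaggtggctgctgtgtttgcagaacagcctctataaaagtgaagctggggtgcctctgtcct
Pgam2, chr11:5803797-5804046, minus strand: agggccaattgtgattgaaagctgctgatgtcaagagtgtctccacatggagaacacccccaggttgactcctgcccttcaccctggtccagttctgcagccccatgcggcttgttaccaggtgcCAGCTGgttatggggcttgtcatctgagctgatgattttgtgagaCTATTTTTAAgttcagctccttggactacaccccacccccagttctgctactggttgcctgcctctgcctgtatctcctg
Myh7, chr14:54994627-54994876, minus strand: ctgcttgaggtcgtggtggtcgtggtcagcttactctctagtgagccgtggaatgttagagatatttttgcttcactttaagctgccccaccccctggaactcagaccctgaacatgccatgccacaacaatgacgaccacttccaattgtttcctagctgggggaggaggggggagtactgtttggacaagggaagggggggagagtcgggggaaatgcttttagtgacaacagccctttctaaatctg
The genes Myh2, Myh1 and Myh4 lie beside each other on chromosome 11 and are read in the same direction. Their printed stretches share 1 run of 20 bases, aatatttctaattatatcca, which begins 130 bases before the start of Myh2, 165 before that of Myh1 and 163 before that of Myh4. No other promoter of the 32851 in the table holds this run. The Myh7 stretch holds no capitals, and neither does that of Myh2. Promoters of 32 of the 41 listed genes were in the table. CAGCTG was in 13 of these 32, or 40.6%, against 13% of all promoters in the table, and in 4 of 8 fast and 2 of 7 slow genes. Any E-box of the form CANNTG, which includes CAGCTG, was in 84.4% of the 32 and in 66.2% of all. A MEF2 match was in 5 of the 32 (Xirp2, Ttn, Pgam2, Myh1 and Myh4), or 15.6%, against 2.92% of all promoters. It was in 2 of 8 fast genes and 0 of 7 slow genes. These matches describe letters and do not show that a factor was bound.

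**Figure D1:**
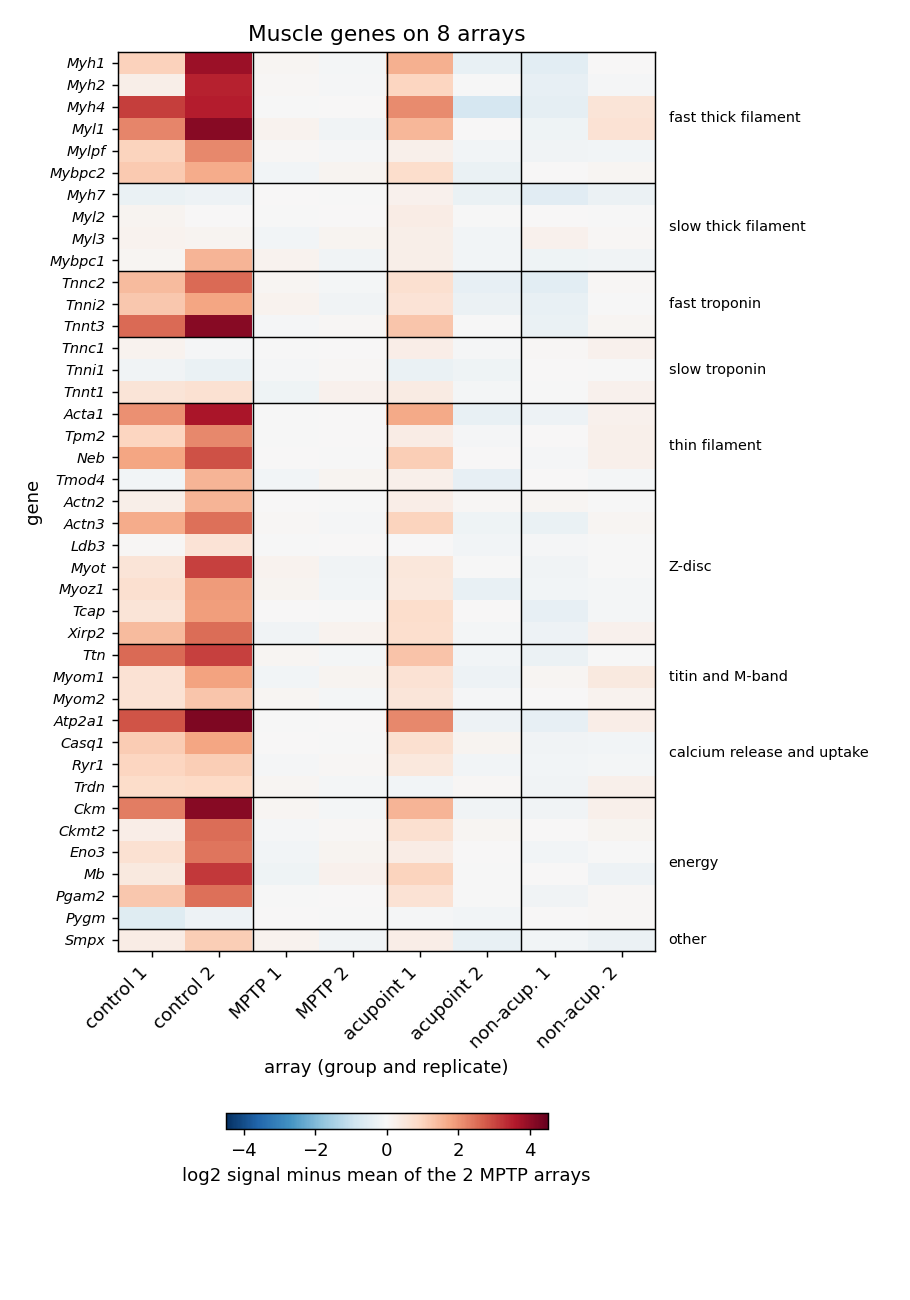
Heat map of the 41 listed genes (rows, grouped by role) on the 8 arrays (columns), coloured by log2 signal minus the mean of the 2 MPTP arrays. Red marks arrays above the MPTP mean: control replicate 2 is the reddest column, control replicate 1 and acupoint replicate 1 are paler, and the rows of the slow myosin and slow troponin genes stay near white apart from Mybpc1 on control replicate 2 and Tnnt1.

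For these genes 3 arrays stood apart. Signals are on a log2 scale. Of the 41 genes, 35 were highest on control replicate 2, and 31 were higher on both controls and acupoint replicate 1 than on any of the other 5 arrays. In 24 genes the order was control 2, control 1, acupoint 1, then the rest. These counts cover the listed genes only, and the 3 arrays were picked with their values known. The share of all genes with such patterns was not counted. The remaining highest values were on acupoint 1 for Myh7, Myl2, Myl3 and Tnnc1, on MPTP 2 for Tnni1 and on non-acupoint 2 for Pygm. Averaged over the 11 fast isoforms, the signal of replicates 1 and 2 was 7.001 and 8.40 in control, 5.36 and 5.29 in MPTP, 6.50 and 5.09 in acupoint, and 5.02 and 5.48 in non-acupoint mice. Averaged over the 7 slow isoforms, it was 5.53 and 5.70, 5.41 and 5.48, 5.65 and 5.32, and 5.38 and 5.44 in the same order of groups. The fast mean thus ranged over more than 3 log2 units across the arrays and the slow mean over less than 1.

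The labelled tissue was checked against marker genes. The mean of 14 neuron markers was 9.34 and 9.39 in control mice and 9.68 to 9.76 on the other 6 arrays, and that of 11 glia markers was 9.73 and 9.67 in control mice and 10.09 to 10.26 on the others. Both lists were thus lowest on the 2 controls. In MPTP minus control, 9 of the 14 neuron and 7 of the 11 glia markers were called higher and 0 lower, against 13.7% and 3.1% of all genes. Their medians were 0.39 and 0.44, which stayed positive under the other scalings of the arrays. Forebrain markers averaged 4.90 to 5.12. Hox genes of cervical level averaged 7.18 to 7.50, and those of more posterior levels 6.42 to 7.10 on 7 arrays and 5.53 on non-acupoint 1. Muscle is not part of the labelled tissue, and the labels do not mention it. They do not record what was attached to the cord at dissection, so a difference in how much muscle a sample held and a difference within the cord cannot be told apart. In tissue of many cells, fewer cells of a type and less RNA per cell cannot be told apart.

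Myosin makes the thick filament and its heavy chain sets the speed of the fibre. Myh4 codes for the heavy chain of the fastest fibres, type 2B. Its signal was 8.29 and 8.69 in control, 5.14 and 5.19 in MPTP, 7.27 and 4.41 in acupoint, and 4.77 and 5.76 in non-acupoint mice, replicate 1 first. Both controls lay above all 6 arrays of MPTP-treated mice, and the acupoint arrays lay at the 2 ends of those 6. Myh4 was lower in MPTP than in control mice by a log2 difference of -3.32 (standard error, SE, 0.72; limma adjusted p = 0.0153).

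Myh1, the heavy chain of type 2X fibres, was at 5.77 and 8.61 in control, 4.84 and 4.65 in MPTP, 6.33 and 4.40 in acupoint, and 4.26 and 4.78 in non-acupoint mice. Myh2, the heavy chain of type 2A fibres, was at 5.15 and 8.34 in control, 4.92 and 4.85 in MPTP, 5.86 and 4.88 in acupoint, and 4.51 and 4.82 in non-acupoint mice. In both genes control 1 was below acupoint 1, and control 2 was far above every other array. The MPTP minus control differences, -2.44 for Myh1 (SE 0.81) and -1.86 for Myh2 (SE 0.78), did not pass the test (adjusted p = 0.0702 and 0.139). The 2 control arrays differed by 2.84 for Myh1 and by 3.19 for Myh2.

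The fast light chains bind the neck of the myosin head. Myl1, the fast essential light chain, was at 6.34 and 8.23 in control, 4.32 and 3.98 in MPTP, 5.63 and 4.17 in acupoint, and 3.96 and 4.80 in non-acupoint mice. Mylpf, the fast regulatory light chain, was at 6.15 and 7.33 in control, 5.21 and 5.12 in MPTP, 5.39 and 5.03 in acupoint, and 5.01 and 5.06 in non-acupoint mice. Mybpc2, the fast myosin-binding protein C, was at 6.02 and 6.50 in control, 4.71 and 4.97 in MPTP, 5.65 and 4.54 in acupoint, and 4.85 and 4.94 in non-acupoint mice. For all 3 genes the controls were the 2 highest arrays and acupoint 1 came next. Each was lower in MPTP than in control mice: Myl1 by -3.14 (SE 0.60, adjusted p = 0.0101), Mylpf by -1.58 (SE 0.31, adjusted p = 0.0107) and Mybpc2 by -1.42 (SE 0.31, adjusted p = 0.016).

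Of the slow counterparts of the thick filament, Myh7, Myl2 and Myl3 varied little between arrays. All 3 were dim, below the median of all probe sets (5.59 to 5.80) on every array. A level signal can therefore not be told from one too low to show a change. Myh7, the slow heavy chain, was at 4.86 and 4.92 in control, 5.18 and 5.12 in MPTP, 5.34 and 4.87 in acupoint, and 4.65 and 4.90 in non-acupoint mice. Myl2, the slow regulatory light chain, was at 4.65 and 4.56 in control, 4.52 and 4.55 in MPTP, 4.88 and 4.51 in acupoint, and 4.57 and 4.52 in non-acupoint mice. Myl3, the slow essential light chain, was at 5.44 and 5.41 in control, 5.16 and 5.38 in MPTP, 5.54 and 5.15 in acupoint, and 5.45 and 5.33 in non-acupoint mice. The controls did not both stand above the other arrays in any of these genes, and acupoint 1 was the highest array by a small margin in each. The MPTP minus control differences were 0.26 for Myh7 (SE 0.18), -0.07 for Myl2 and -0.16 for Myl3, and none passed the test; the sign for Myl2 and Myl3 changed with the scaling of the arrays.

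Mybpc1, the slow myosin-binding protein C, was the exception among the slow thick-filament genes. It was at 6.04 and 7.48 in control, 6.11 and 5.80 in MPTP, 6.21 and 5.84 in acupoint, and 5.76 and 5.79 in non-acupoint mice. Only control 2 stood out, and the difference of -0.80 between MPTP and control mice (SE 0.37) did not pass (adjusted p = 0.17).

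**Figure D2:**
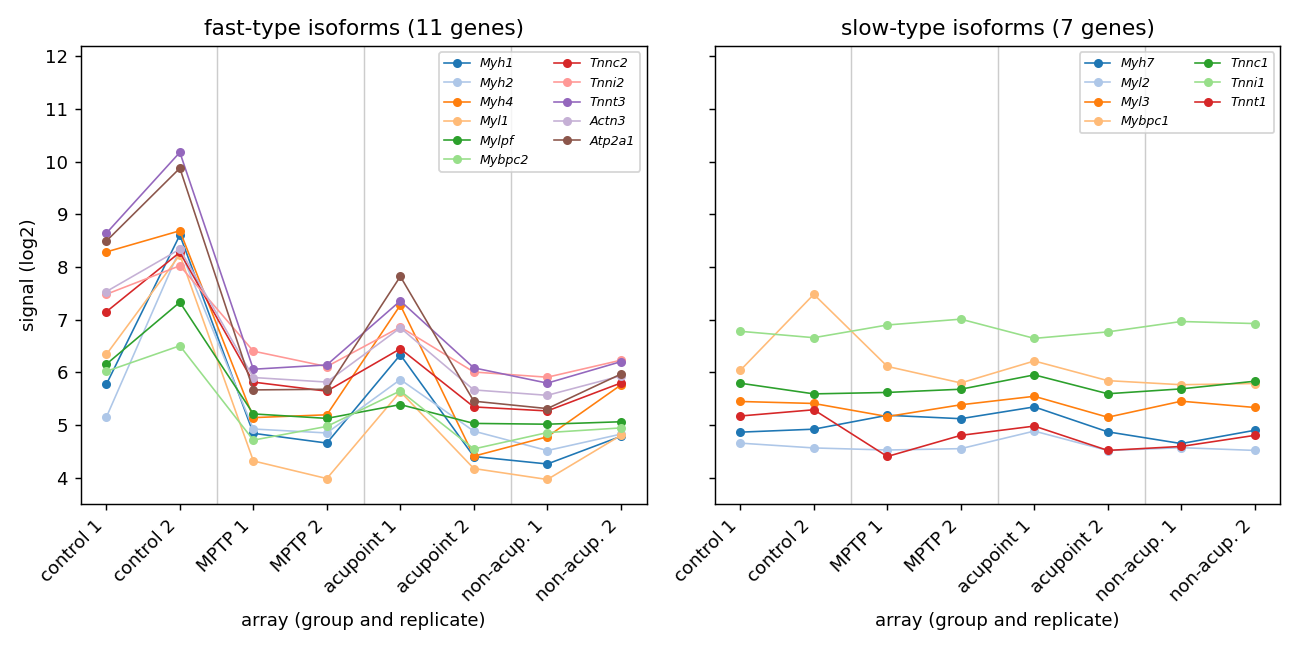
Log2 signal of each of the 11 fast-type genes (left) and 7 slow-type genes (right) on the 8 arrays; each line joins the points of 1 gene, to guide the eye only. The fast-type lines peak on the controls and again on acupoint replicate 1, while the slow-type lines are nearly level except for Mybpc1 on control replicate 2.

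Troponin has 3 parts, which bind calcium, block actin and anchor the complex to tropomyosin. Tnnt3, the fast anchoring subunit, was at 8.64 and 10.18 in control, 6.06 and 6.14 in MPTP, 7.36 and 6.08 in acupoint, and 5.79 and 6.20 in non-acupoint mice. Tnnc2, the fast calcium-binding subunit, was at 7.15 and 8.28 in control, 5.81 and 5.64 in MPTP, 6.45 and 5.34 in acupoint, and 5.27 and 5.80 in non-acupoint mice. Tnni2, the fast inhibitory subunit, was at 7.48 and 8.02 in control, 6.40 and 6.11 in MPTP, 6.86 and 6.00 in acupoint, and 5.91 and 6.23 in non-acupoint mice. The 3 fast subunits had the same order of the top 3 arrays, control 2, control 1 and acupoint 1. All 3 were lower in MPTP than in control mice, by -3.31 for Tnnt3 (SE 0.48, adjusted p = 0.00442), -1.99 for Tnnc2 (SE 0.40, adjusted p = 0.0121) and -1.50 for Tnni2 (SE 0.27, adjusted p = 0.00846).

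Of the slow troponin subunits, Tnnt1 showed a small shift of the same direction. It was at 5.17 and 5.29 in control, 4.40 and 4.80 in MPTP, 4.98 and 4.52 in acupoint, and 4.59 and 4.80 in non-acupoint mice. Tnnt1 was the 1 slow gene of 7 with both controls and acupoint 1 above the other arrays; its difference of -0.63 between MPTP and control mice (SE 0.20) did not pass (adjusted p = 0.059). Tnnc1, shared by slow fibres and heart, was at 5.79 and 5.59 in control, 5.62 and 5.68 in MPTP, 5.95 and 5.59 in acupoint, and 5.68 and 5.83 in non-acupoint mice. Tnni1, the slow inhibitory subunit, was at 6.78 and 6.66 in control, 6.90 and 7.01 in MPTP, 6.64 and 6.77 in acupoint, and 6.96 and 6.93 in non-acupoint mice. Control 2 and acupoint 1, high for the fast subunits, were the 2 lowest arrays for Tnni1 and no guide to the order for Tnnc1. Neither passed between MPTP and control mice, at -0.04 for Tnnc1, whose sign changed with the scaling, and 0.24 for Tnni1 (adjusted p = 0.169).

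Fast and slow members of a pair were then set against each other within each array, as log2 fast minus log2 slow, and the 6 arrays of MPTP-treated mice were compared with the 2 controls by an exact two-sided permutation test. There were 7 pairs, and 0.0357 is the smallest p that the 28 ways of choosing 2 of 8 arrays can give. The within-array difference Tnnt3 minus Tnnt1 was 3.47 and 4.89 on the controls and 1.20 to 2.38 on the other 6 arrays. The controls lay above all 6, and the means differed by -2.59 (exact permutation p = 0.0357, adjusted over the 7 pairs 0.0417). The same p values were found for Myh4 minus Myh7, at -3.18, Myl1 minus Myl3, at -2.72, Tnnc2 minus Tnnc1, at -2.03, Tnni2 minus Tnni1, at -1.65, and Mylpf minus Myl2, at -1.59. All pairs rest on the same 2 control arrays, so these 6 results are not independent findings. The adjusted p is under 0.05 only because 6 pairs tie at the smallest p, and 1 such pair alone would not have passed. The pairs were chosen with earlier results of these data known. Mybpc2 minus Mybpc1 was -0.02 and -0.98 on the controls and -1.40 to -0.57 on the other arrays, which overlap. Its mean difference of -0.48 did not pass (exact permutation p = 0.214, adjusted 0.214). The test says that the fast gene differed more than the slow gene of a pair, not that the slow gene stayed level. With any 1 array left out 0 pairs passed, and the smallest possible p was then 0.0476 or 0.143 before adjustment.

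Of 4 thin-filament genes that fast and slow fibres share, 3 were lower in MPTP than in control mice. Acta1, skeletal muscle actin, was at 8.84 and 10.43 in control, 6.74 and 6.79 in MPTP, 8.46 and 6.43 in acupoint, and 6.52 and 6.96 in non-acupoint mice. Tpm2, a tropomyosin that lies along the actin filament, was at 7.20 and 8.42 in control, 6.24 and 6.25 in MPTP, 6.58 and 6.20 in acupoint, and 6.27 and 6.48 in non-acupoint mice. Acupoint 1 came within 0.37 of control 1 for Acta1, whereas for Tpm2 it was closer to the remaining arrays than to control 1. Both were lower in MPTP than in control mice, Acta1 by -2.87 (SE 0.61, adjusted p = 0.0147) and Tpm2 by -1.56 (SE 0.32, adjusted p = 0.012). Neb, the giant nebulin that runs along the thin filament, was lower by -2.33 (SE 0.38, adjusted p = 0.00625). Tmod4, a tropomodulin that caps the filament end, was at 4.14 on control 1, below MPTP 2 (4.37) and acupoint 1 (4.49), and its difference of -0.70 did not pass (adjusted p = 0.306).

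At the Z-disc, where thin filaments are anchored, Actn3 codes for the alpha-actinin of fast fibres. Actn3 was at 7.53 and 8.34 in control, 5.90 and 5.81 in MPTP, 6.84 and 5.66 in acupoint, and 5.56 and 5.93 in non-acupoint mice, and was lower in MPTP than in control mice by -2.08 (SE 0.36, adjusted p = 0.00708). Ldb3, a scaffold that binds alpha-actinin, was at 6.50 and 7.06 in control, 6.43 and 6.49 in MPTP, 6.47 and 6.35 in acupoint, and 6.39 and 6.43 in non-acupoint mice. Only control 2 was apart for Ldb3, and its difference of -0.32 did not pass. Myoz1, a calcineurin-binding protein of fast fibres, was lower by -1.32 (SE 0.36, adjusted p = 0.0348). Differences that did not pass were -1.82 for myotilin, Myot (adjusted p = 0.0715), -1.22 for telethonin, Tcap (adjusted p = 0.0549), and -0.89 for Actn2 (adjusted p = 0.0875). Xirp2 was too dim to be tested, at 4.92 and 6.00 in control and 3.27 to 4.23 on the other 6 arrays, and Smpx, a small muscle protein, likewise at 3.87 and 4.64 in control and 3.20 to 3.83 on the others. Both controls lay above the 6 other arrays in each of these 2 dim genes.

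Titin, the giant elastic protein that spans from Z-disc to the middle of the sarcomere, had the smallest p of the 39 listed genes tested between MPTP and control mice. Ttn was at 7.59 and 8.13 in control, 5.12 and 4.97 in MPTP, 6.34 and 4.91 in acupoint, and 4.77 and 5.03 in non-acupoint mice. The controls lay 1.25 or more above the highest treated array, and the MPTP minus control difference was -2.82 (SE 0.38, adjusted p = 0.00362). Myom1, which crosslinks the thick filaments at the middle of the sarcomere, was at 5.29 and 6.46 in control, 4.54 and 4.76 in MPTP, 5.31 and 4.41 in acupoint, and 4.73 and 5.08 in non-acupoint mice. Control 1 and acupoint 1 were at the same height for Myom1, and its difference of -1.23 did not pass (adjusted p = 0.053). Myom2, its relative of fast fibres, was lower by -0.95 (SE 0.24, adjusted p = 0.0269).

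All 4 genes of calcium release and uptake were lower in MPTP than in control mice. Atp2a1, the calcium pump SERCA1 of fast fibres, was at 8.49 and 9.88 in control, 5.66 and 5.68 in MPTP, 7.82 and 5.45 in acupoint, and 5.31 and 5.96 in non-acupoint mice, and its difference of -3.51 (SE 0.66, adjusted p = 0.00927) was the greatest of the 39 tested. Trdn, triadin, which ties the calcium store to its release channel, was at 6.82 and 6.88 in control, 6.08 and 5.89 in MPTP, 5.87 and 6.05 in acupoint, and 5.83 and 6.21 in non-acupoint mice. On this probe set, the brightest for Trdn, both controls were high and within 0.07 of each other, and acupoint 1 was among the lower arrays. Its difference was -0.87 (SE 0.15, adjusted p = 0.00759). The array holds 19 probe sets for Trdn, of which 6 were bright enough to be tested and 18 were lower in MPTP, with differences from -3.22 to 0.07. On 4 of the 6 bright probe sets acupoint 1 was the highest array of the MPTP-treated mice, so its low place is that of the probe set used. Casq1, the calcium-storing protein calsequestrin, was lower by -1.46 (SE 0.23, adjusted p = 0.00534) and Ryr1, the release channel, by -1.03 (SE 0.19, adjusted p = 0.0088).

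Of the 6 energy genes, 3 were lower, 1 was higher and 2 did not pass. Ckm, cytosolic muscle creatine kinase, which regenerates ATP from phosphocreatine, was at 8.13 and 9.94 in control, 5.92 and 5.74 in MPTP, 7.36 and 5.68 in acupoint, and 5.66 and 6.04 in non-acupoint mice. Its difference was -3.21 (SE 0.59, adjusted p = 0.00848), and over the 8 arrays it was the gene closest to the mean of the other listed genes (r = 0.996, a description with no test). The muscle glycolysis enzymes Pgam2 and Eno3 were lower by -1.84 (SE 0.35, adjusted p = 0.0101) and -1.56 (SE 0.42, adjusted p = 0.0347). Myoglobin, Mb, which stores oxygen in oxidative fibres, was at 6.32 and 9.06 in control, 5.68 and 6.07 in MPTP, 6.87 and 5.86 in acupoint, and 5.89 and 5.66 in non-acupoint mice. Only control 2 was far above the rest for Mb, and the difference of -1.82 did not pass (adjusted p = 0.106). Ckmt2, the mitochondrial creatine kinase of muscle, differed by -1.41 and did not pass (adjusted p = 0.111).

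Pygm, glycogen phosphorylase of muscle, which astrocytes of the brain are also known to make, went the other way. It was at 9.82 and 10.13 in control, 10.38 and 10.33 in MPTP, 10.31 and 10.22 in acupoint, and 10.37 and 10.41 in non-acupoint mice. Both controls were below all 6 arrays of MPTP-treated mice. The difference of 0.38 (SE 0.10, adjusted p = 0.0285) was not called after quantile normalization, after cyclic loess, with eBayes without a trend, or without control 1, either MPTP array or either non-acupoint array. It stayed positive in these, at 0.23 to 0.41 (adjusted p from 0.0543 to 0.197).

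**Figure D3:**
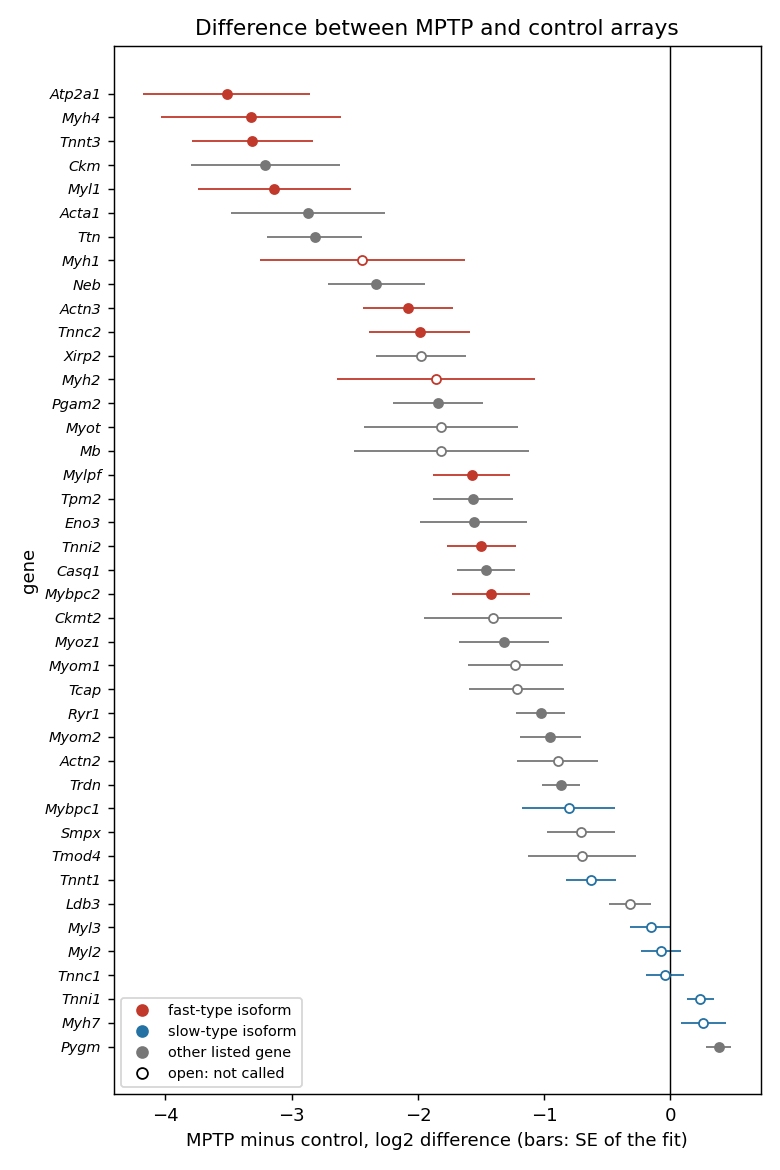
MPTP minus control log2 difference of each listed gene, with bars of 1 SE from the fit over 8 arrays (2 arrays per group); filled points passed an adjusted p under 0.05 and open points did not. Xirp2 and Smpx are shown open from a fit without the filter on dim probe sets, since they were not tested. Fast-type genes lie between -3.51 and -1.42, and slow-type genes between -0.80 and 0.26.

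Counted over roles, 9 of 11 fast isoforms were lower in MPTP than in control mice, 0 of 7 slow isoforms passed in either direction (1 at an unadjusted p under 0.05), and of the other 21 tested 12 were lower and 1 higher. The slow genes Myh7, Myl2, Myl3 and Tnnt1 were below the median probe set on every array, where a change may not show. Of all 16026 genes tested, 31.6% had an unadjusted p under 0.05. The median difference was -2.08 for fast, -0.07 for slow and -1.46 for all 39 tested listed genes, beside 0.06 for all genes. The neuron and glia markers, higher by medians of 0.39 and 0.44, moved the opposite way in the same comparison, and their part in the result was not tested. In 33 of the 39 both controls lay above both MPTP arrays, and in 3 below, against 22.1% and 41.9% of all genes. Of the 67 genes that were lower by more than 1 log2 unit and passed, 19 were listed here. Ckmt2 and Tmod4 exceeded the brightness limit of 4.3 in their mean over all 8 arrays but not in their mean over the 6 treated arrays, so the counts are descriptions of the genes that passed it.

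These counts rest on few arrays. Without control replicate 2, 8 of the 39 passed (Casq1, Mylpf, Neb, Pgam2, Tnnt3, Tpm2 and Ttn lower, Pygm higher), where 0.774% of all genes were called lower, and the median difference was -0.72. Without control replicate 1, 32 passed, with 2.4% of all genes called lower. Without MPTP replicate 1, 0 passed with limma (26 at an unadjusted p under 0.05), and without MPTP replicate 2, only Tnnt3 and Ttn did. Of all genes, 0.156% and 0.281% were called lower in these fits, and the medians of the listed genes were -1.44 and -1.46. With both control 2 and acupoint 1 left out, 25 passed, including all 22 of the full fit, and 5.69% of all genes were called lower.

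With the 3 MPTP-treated groups averaged, 27 of the 39 listed genes were lower than in control mice and 1, Pygm, was higher, beside 5.35% and 19.9% of all genes. This comparison shares the control arrays with the one above. Beyond the 21 genes already named, Myh1 (-2.31, SE 0.66, adjusted p = 0.0315), Myot (-1.77, adjusted p = 0.0292), Tcap (-1.16, adjusted p = 0.0233), Myom1 (-1.07, adjusted p = 0.0313), Actn2 (-0.83, adjusted p = 0.0448) and Tnnt1 (-0.55, SE 0.16, adjusted p = 0.0354) passed. Myh2 (-1.77, adjusted p = 0.0729), Mb (-1.69, adjusted p = 0.0558) and Ckmt2 (-1.26, adjusted p = 0.0678) did not. Tnnt1 was the 1 slow isoform of 7 to pass, against 10 of 11 fast isoforms. In 24 of the 39 both controls lay above all 6 treated arrays, and in 1 below, against 10.9% and 26.1% of all genes. An unadjusted p under 0.05 was found for 33 of the 39 and for 37.2% of all genes. Without control replicate 2, 15 passed, with 1.57% of all genes called lower, and the median difference went from -1.36 to -0.73.

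The 2 control arrays differed by unequal amounts among the genes. On the log2 scale, control 2 exceeded control 1 by 3.19 for Myh2, 2.84 for Myh1, 2.74 for Mb, 2.50 for Myot and 2.19 for Ckmt2, but by 0.40 for Myh4 and by 0.54 for both Ttn and Tnni2. The genes with the greatest differences were thus heavy chains of 2A and 2X fibres, myoglobin, mitochondrial creatine kinase and the Z-disc gene Myot. Trdn (0.07 on the probe set used), Ryr1 (0.14) and Pygm (0.31) differed less than Myh4, the heavy chain of 2B fibres. On the other bright Trdn probe sets the controls lay further apart, at most at 5.84 on control 1 and 6.91 on control 2. Of the slow genes, Mybpc1 differed by 1.44 and the others by -0.20 to 0.12. Several of those others were dim on all arrays, and whether the amounts sort by fibre type was not tested. For the 24 genes with a range of at least 2 log2 units, the linear signal above each gene's lowest array was also expressed as a percentage of that on control 2. The lowest array is a choice of zero, and the percentages move with it. On control 1 this excess had a median of 28.7% and ran from 4.19% for Myh2 to 74.4% for Myh4, and on acupoint 1 it had a median of 16.7% and ran from 6.98% for Myot to 34.2% for Myh4. With the zero at the mean of the 2 MPTP arrays, chosen after seeing the data, the medians were 27.1% and 13.7%. Control 1 then ran from 2% for Myh2 to 73.4% for Myh4, and acupoint 1 from 4.72% for Mylpf to 31.6% for Myh4. The arrays were compared after they were known to be high, and no test was made.

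**Figure D4:**
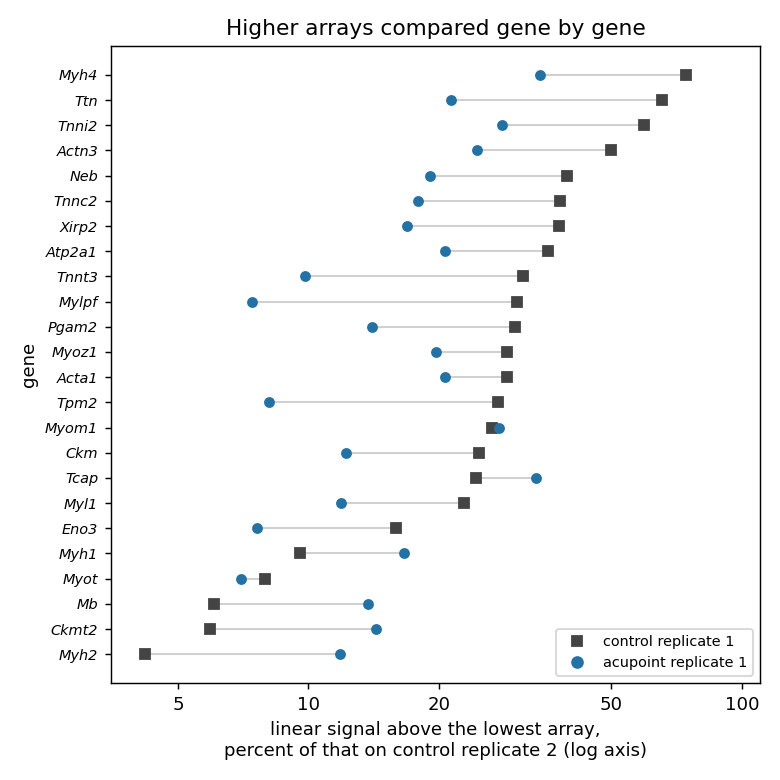
Linear signal above each gene's lowest array on control replicate 1 (squares) and acupoint replicate 1 (circles), as a percentage of that on control replicate 2, on a log axis, for the 24 genes with a range of at least 2 log2 units. Squares climb from 4.19% for Myh2 to 74.4% for Myh4 while circles stay between 6.98% and 34.2%, so the order of the 2 arrays switches among the genes.

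Within groups, the 2 control arrays differed by a median of 1.13 over the 41 genes (replicate 2 minus replicate 1, from -0.20 to 3.19), with 37 genes higher on replicate 2. The difference exceeded 1 log2 unit in 23 of the 41, against 0.849% of all genes. The fast isoforms differed by a median of 1.18 and the slow isoforms by -0.04. The 2 acupoint arrays differed by a median of -0.63, by -1.18 for fast and -0.37 for slow isoforms, and 13 genes differed by more than 1, against 0.718% of all genes. The greatest of these was Myh4, at -2.87. The MPTP arrays had a median difference of -0.01 with no gene over 1. The non-acupoint arrays had a median of 0.20, and 11 of 11 fast isoforms were higher on replicate 2, Myh4 by 0.98 and Myl1 by 0.84.

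Needling was compared with MPTP alone. In acupoint minus MPTP, 0 of 39 listed genes passed with limma, as did 0% of all genes, and 1 listed gene, Tnni1, had an unadjusted p under 0.05, against 1.25% of all genes. None passed under any other setting tried. Both acupoint arrays lay above both MPTP arrays in 3 listed genes and below them in 2, against 12.3% and 11.9% of all genes. The median difference was 0.22 over the 39 and 0.49 over the fast isoforms, of which 11 of 11 were positive, beside -0.01 for all genes. Without acupoint replicate 1 the median of the 39 was -0.11 and without acupoint replicate 2 it was 0.605, so the direction followed 1 array. Atp2a1 differed by 0.97 and Myh4 by 0.68, with 1 acupoint array above and 1 below both MPTP arrays in each gene.

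In non-acupoint minus MPTP, 0 of 39 passed, and 0 had an unadjusted p under 0.05, against 0% and 1.7% of all genes. Both non-acupoint arrays lay above both MPTP arrays in 2 listed genes and below them in 7, against 17.1% and 19.2% of all genes. The median was -0.03, and the extremes were Myh7 at -0.38 and Myom1 at 0.26. Both needling comparisons share the 2 MPTP arrays. In acupoint minus non-acupoint, 0 of 39 passed (smallest adjusted p = 0.936), as did 0% of all genes. Casq1, at 0.56, was the 1 listed gene with an unadjusted p under 0.05, against 3.77% of all genes. The acupoint arrays both lay above the non-acupoint arrays in 5 listed genes and below them in 2, against 15.2% and 13.1% of all genes. The median of 0.33 became -0.07 without acupoint replicate 1. Without acupoint replicate 2, 3 listed genes passed, all higher, where 0.512% of all genes were called higher and 3.37% lower.

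A second list of 52 other skeletal muscle genes, of which 50 were on the array and 47 tested, was followed as well. In MPTP against control mice 13 were lower and 3 higher, against 3.1% and 13.7% of all genes, with a median of -0.30. The lower ones were Klhl41, a sarcomere-stabilising protein (-1.51, SE 0.41, adjusted p = 0.0362), Nrap, which helps assemble myofibrils (-1.12, SE 0.27, adjusted p = 0.0233), and the calcium channel subunit Cacna1s (-1.02, SE 0.24, adjusted p = 0.0211), with Ampd1, Tpm1, Pdlim3, Mylk2, Cox6a2, Cacng1, Srl, Stac3, Lmod2 and Asb5 between -0.93 and -0.54. Klhl41 was at 5.81 and 7.24 in control, 4.97 and 5.06 in MPTP, 5.79 and 4.89 in acupoint, and 4.95 and 5.23 in non-acupoint mice, the same 3 high arrays. The 3 higher genes are made in many tissues: Pfkm, a phosphofructokinase (0.67, SE 0.07, adjusted p = 0.00172), the tropomyosin Tpm3 (0.35, SE 0.10, adjusted p = 0.0387) and the aldolase Aldoa (0.24, SE 0.06, adjusted p = 0.031). How widely the 13 lower genes are made was not examined, and of these Tpm1 was at 8.27 to 9.36 on all arrays. Phkg1 differed by 0.35 without passing. Against the mean of the MPTP-treated groups Pvalb (-0.42), Des (-0.88) and Art1 (-0.58) passed too. In that comparison 16 of the 47 were lower and 3 higher, against 5.35% and 19.9% of all genes. Cox8b, a cytochrome oxidase subunit of muscle and brown fat, differed by -1.34 and did not pass (adjusted p = 0.203); it was at 6.34 and 7.79 in control and 8.12 on non-acupoint 2, against 5.46 to 5.98 on the other 5 arrays.

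Muscle stem cell and regulatory genes formed a further list. Of 7 tested (among them Mef2a and Mef2d, which neurons also make) 0 passed between MPTP and control mice with limma. An unadjusted p under 0.05 was found for 1 of the 7 and for 31.6% of all genes. With the 3 MPTP-treated groups averaged, Myf6, a regulator of muscle genes named here after its values were seen, was lower by -0.53 (SE 0.16, adjusted p = 0.0426). Heart genes were tested because Myh7, Myl2, Myl3 and Tnnc1 are shared with it: 0 of 10 passed and 0 had an unadjusted p under 0.05, and the list mean lay between 5.51 and 5.79 on all arrays. Actc1, cardiac actin, was at 6.32 and 6.93 in control and 6.00 to 6.31 on the others, and Ryr2 at 8.69 and 9.01 against 8.43 to 8.85. Of 7 smooth muscle genes 0 passed and 2 had an unadjusted p under 0.05, again beside 31.6% of all genes. In the average of the 3 MPTP-treated groups 1 passed, Des, which skeletal muscle also makes, at -0.88 (SE 0.23, adjusted p = 0.0225), and 0 of the 10 heart genes did with limma (1 at an unadjusted p under 0.05). In that comparison 5.35% of all genes were lower, 19.9% were higher and 37.2% had an unadjusted p under 0.05. Acta2, smooth muscle actin, was at 7.75 and 7.90 in control and 7.65 to 8.01 on the others, and Tagln ran from 5.89 to 6.70.

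Over the 8 arrays, the signals most like the mean of the listed genes were sought among 632 genes with a range of at least 1 log2 unit. These correlations are descriptions over 8 arrays that share the contrast between controls and the rest, and carry no test. Apart from the listed genes themselves, the closest 15 were Klhl41 (r = 0.991), Scarna13, Prr23a1, Snord22, Tpm1, Pdlim3, Ankrd23, Tmem182, Cacna1s, Snora74a, Snora23, Tanc2, Nrap, Klhl31 and Ampd1 (r = 0.952). On the list of other muscle genes are 6 of these 15. Scarna13, Snord22, Snora74a and Snora23 are small nuclear or nucleolar RNAs, which cells of many kinds make: Snord22 was at 7.72 and 8.79 in control, 6.17 and 6.18 in MPTP, 6.86 and 6.16 in acupoint, and 6.16 and 5.93 in non-acupoint mice. The 5 most opposite were Gtf3c6 (r = -0.993), Tmx1, Sh3bgrl, Stx12 and Nfyb (r = -0.99), genes expressed in many cell types; Gtf3c6 was lowest on control 2, at 6.47, and second lowest on control 1, at 6.98. Among the listed genes, r to the mean of the others was lowest for Tnni1 (-0.73) and Pygm (-0.584) and near 0 for Tnnc1 (0.00608) and Myh7 (0.0595).

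Markers of tissues around the cord differed between arrays too, in part on the same arrays. The mean of 8 peripheral nerve markers was 8.59 on control 1 and 8.53 on acupoint 1, but 7.02 on control 2, the lowest of the 8 arrays, where most muscle genes were highest. Pmp22, a protein of peripheral myelin, was at 12.47 and 10.62 in control and 12.86 and 11.03 in acupoint mice. It was at 11.15 and 11.95 in MPTP and 11.11 and 11.08 in non-acupoint mice. Not every nerve marker was highest on control 1 and acupoint 1. Mal was at 11.27 and 10.97 in control and 11.40 to 11.69 on the other 6 arrays, and Cdh19 at 7.23 and 6.65 against 7.72 to 8.28. The mean of the 10 meninges and fibroblast markers was high on the same arrays, at 7.95 and 8.13 against 6.72 to 7.58. The matrix protein Dcn was at 10.37 and 7.84 in control and 10.48 and 7.66 in acupoint mice. It was at 7.90 and 9.875 in MPTP and 8.21 and 9.01 in non-acupoint mice. Ptgds, the brightest of these markers, was lowest on the controls, at 10.39 and 10.42 against 10.67 to 11.19. So was Pdgfra, at 8.12 and 8.07 against 8.52 to 8.78. In MPTP against control mice 2 of the 8 nerve markers, Cdh19 and Mal, and 2 of the 10 meninges markers, Pdgfra and Ptgds, were called higher. In both lists 0 were lower. Of all genes 13.7% were higher and 3.1% lower, and the medians of the 2 lists were -0.15 and -0.19. The cord glia markers had a median of 0.44 in the same comparison. Which cells gave the signal of Cdh19, Mal, Pdgfra and Ptgds was not tested. Fat markers averaged 7.04 on non-acupoint 2 and 4.78 to 5.22 elsewhere, with Lpl at 8.18 against 5.34 to 6.15 and Plin4 at 7.04 against 5.57 to 6.59. Cartilage and bone markers (7 tested, mean 5.43 to 5.75) and blood markers (9 tested, mean 5.46 to 6.02) each had 1 gene higher and 0 lower in MPTP than control mice. The same 13.7% and 3.1% of all genes stand beside these. Alas2, the heme enzyme of red cell precursors, was at 5.24 and 5.54 in control and 5.59 to 8.57 on the others. Bpgm, the brightest blood marker, was at 8.86 and 8.85 in control and 8.61 to 9.08 on the others. The part of these tissues in the muscle gene differences was not tested.

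**Figure D5:**
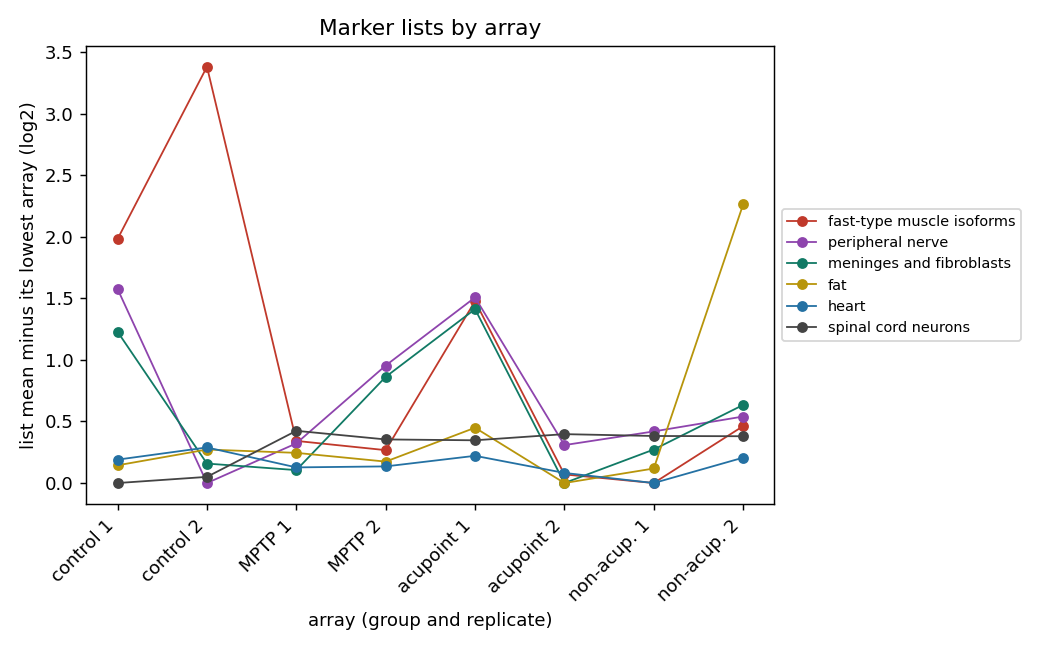
Mean log2 signal of 6 gene lists on the 8 arrays, each minus its own lowest array. The fast-type muscle genes peak on control replicate 2, the peripheral nerve and meninges lists on control replicate 1 and acupoint replicate 1, and the fat list on non-acupoint replicate 2, while the heart list runs only from 5.51 to 5.79 before this subtraction.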

How the data were processed

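RNA from 8 samples in 4 groups of 2 was hybridised to 1 Affymetrix whole-transcript array each, from 300 ng of total RNA per the labels' protocols. The deposited values are log2 signals, 1 for each probe set on each array, which the authors made with RMA in Affymetrix Expression Console per the submitters' processing notes; versions, chip library and build are not given in the sources used here. That the log has base 2 was inferred from how far the values reach. RMA adjusts background, equalises the arrays and summarises probes, and it compresses differences of dim probe sets. Scan dates were not analysed here, so no batch could be examined. Array data carry no read depth, and the number of arrays limits the precision.

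Of 35557 probe sets, the platform annotation, which can be old, named 1 gene for 21789, several for 1621 and none for 12147. Named probe sets with a mean above the 30th percentile of all values (4.3) numbered 17581. In 865 genes with more than 1 of them the brightest was taken, giving 16026 genes. All 8 arrays entered 1 linear model with 4 group means, using limma 3.58.1 and R 4.3.3 (eBayes with a trend, 4 residual and 5.34 prior degrees of freedom). P-values are two-sided and Benjamini-Hochberg adjusted over all genes within a contrast, and an adjusted p under 0.05 is called. The code was tested on simulated data. Isoform pairs were tested by exact permutation.

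The members, roles, marker lists and tests were chosen with earlier results of these data known. Values on every array are given for the 2 members of each role with the highest mean and for each fast and slow isoform pair, with other members where a count or contrast called for it. Genes outside the list are the 15 most and 5 least like its mean, the called genes of the second muscle list with its 3 greatest and 3 smallest differences, and the 2 brightest markers of other lists where described. Cdh19 and Pdgfra were named after their values were seen. Alternatives were other scalings, filters and moderation, array weights, averaged probe sets, a block for the replicate number, and leaving out each array. Leaving out control 2 and acupoint 1 together, and the second zero of the linear excess, were chosen with the data known. The replicate numbers did not pair the samples: the 6 correlations of deviations between groups ran from -0.328 to 0.174. Promoters came from RefSeq, assembly GRCm38.p6, and figures from matplotlib 3.10.9 in Python 3.11.15.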

Additional observations from a re-analysis of the deposited data

Results flagged for a closer look

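Among the 6 arrays of MPTP-treated mice, 16 of the 41 genes had 1 array far from the other 5, by the gap to the nearest array as a share of the whole range (Dixon's criterion). In all 16 this was acupoint replicate 1, on the high side. Chance flags about 1 in 20 sets of values drawn from 1 population, but these 6 arrays come from differently treated groups. The share of all genes flagged in this way was not counted. The genes are measured on the same arrays, so the flags are not independent. The gap was 0.719 for Myh1, 0.697 for Myh2, 0.74 for Tnnt3, 0.712 for Actn3 and 0.739 for Atp2a1 among the fast isoforms, and 0.854 for Myl2 as the 1 slow isoform. For actin, Acta1, it was 0.742, for nebulin, Neb, 0.759, for titin, Ttn, 0.778 and for Tcap 0.661. Of the calcium store, Casq1 had 0.68 and Ryr1 0.692. Of the energy genes, Ckm had 0.773, Ckmt2 0.785, Mb 0.662 and Pgam2 0.744. The means of the peripheral nerve and meninges markers were also high on this array, as the values above show. The part of these markers in the gaps was not tested.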

How the results depend on the processing

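Called genes in MPTP against control numbered 14 with robust eBayes, against 22, and from 0 (without MPTP replicate 1) to 32 (without control replicate 1) with 1 array left out, 8 without control replicate 2 and 2 without MPTP replicate 2. The median difference moved from -1.46 to between -1.92 and -0.721 with 1 array left out, and to -0.721 without control 2 and acupoint 1. For the mean of the 3 MPTP groups 17 of 21 tested were called at the 50th-percentile filter, where fewer genes are tested, and 15 to 32 with 1 array left out; its median ran from -1.93 to -0.73, and was -0.799 without control 2 and acupoint 1. In acupoint minus MPTP the median ran from -0.114 to 0.605 and 0 genes were called with 1 array left out, and in non-acupoint minus MPTP it ran from -0.144 to 0.0505; the calls of acupoint minus non-acupoint ran from 0 to 3 and its median from -0.0682 to 0.584. Without control 2 and acupoint 1, when the exact p cannot go below 0.167, the pair differences were -3.31 (Myh4), -0.947 (Mylpf), -1.94 (Myl1), -1.47 (Tnnc2), -1.49 (Tnni2), -2.04 (Tnnt3) and -1.04 (Mybpc2). With 1 array left out they ran from -3.49 to -3.01, -2.22 to -0.955, -3.68 to -1.75, -2.7 to -1.37, -1.98 to -1.32 and -3.3 to -1.88 in that order, and for Mybpc2 from -0.956 to 0.00291. The sign of 3 small differences turned: Myl2 (0.159 with quantile normalization, 0.0471 with cyclic loess, 0.0859 with centring), Myl3 (0.0316 and 0.0023 with quantile and centring) and Tnnc1 (0.121, 0.0167 and 0.115, and from -0.145 to 0.0579 with 1 array left out). Quantile normalization and centring moved the median of all genes from 0.0606 to 0.104 and 0.219, and that of the members to -1.41 and -1.3. The replicate block called 21 in MPTP against control, all among the 22. Other settings for the count gave 15 to 31. The cause of these changes was not tested beyond the smaller numbers of arrays and genes stated.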
